A study of Mus musculus with 18 samples.

Results

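Endothelial cells (ECs) of implanted breast tumours were compared with ECs of normal mammary fat pad after both tissues had received cGAMP, so that the final STING-activated states were set side by side across all genes. The comparison used 6 of the 18 RNA-seq libraries, 3 from implanted tumours and 3 from fat pads. They were picked by their sample labels, with earlier results of these data known. The study injected PBS or cGAMP into fat pads, implanted tumours or spontaneous MMTV-PyMT tumours of mice, sorted live CD31+CD45- cells 3 h later and sequenced their RNA. Both groups used here were labelled FVB strain and wild type. The implanted tumours came from MMTV-PyMT tumour tissue that had been digested, grown briefly in culture, mixed with Matrigel and placed in the fat pad of female FVB mice aged 8 to 9 weeks, so their host ECs did not carry the transgene. Each injection held 14 µg of cGAMP in 70 µl. There were 3 mice per group over separate experiments, but which library came from which experiment was not stated, and the 6 matching PBS libraries (3 of each tissue) served only as the untreated reference. The fat pad columns of the expression table name no tissue and were assigned to the fat pad because the other columns name a tumour.

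cGAMP is the second messenger made by the DNA sensor cGAS. It binds STING (gene Tmem173) on the endoplasmic reticulum, after which the kinase TBK1 phosphorylates IRF3, and type I interferon and NF-kB target genes are transcribed. Interferons act back on their producers and neighbours through their receptors, raising antiviral genes, antigen presentation and the chemokines that attract T cells. ECs are known to respond strongly to STING agonists, and leukocyte entry depends on the selectins and integrin ligands they display. Tumour vessels are also known for sprouting, matrix production and a metabolism rich in glycolysis, while ECs of adipose tissue handle fatty acids.

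Endothelial markers were abundant in both tissues. The summed level of 10 markers was 1220 to 2010 FPKM (fragments per kilobase of transcript, in the deposited scaling) in the implanted tumour and 1090 to 1240 FPKM in the fat pad. None of the 13 endothelial identity genes was called higher with all libraries and 1 was called lower. That gene, Tek, the angiopoietin receptor, stood at 20.7, 14.2 and 21.7 FPKM in the implanted tumour and at 50.0, 43.6 and 56.0 FPKM in the fat pad (log2 difference -1.37). With total-read scaling or quantile normalization 3 identity genes were called lower. Without implanted tumour replicate 2, 3 were called higher, among them Cdh5, VE-cadherin (1.025), and without implanted tumour replicate 1, 3 were called lower. Pecam1 (log2 difference 0.32, adjusted p = 0.0815) and Kdr (0.23, adjusted p = 0.316) were not called by limma with Benjamini-Hochberg adjustment, and both turned to -0.17 and -0.26 when libraries were scaled by their total reads. Marker sums of other cells overlapped between the groups for some types and not for others. Leukocyte markers (7 tested, 2 called higher and 1 lower) summed to 52.7, 213 and 44.9 FPKM in implanted tumour replicates 1 to 3 and to 68.1, 21.5 and 25.3 FPKM in fat pad replicates 1 to 3. Implanted tumour replicate 2 held the macrophage genes Lyz2 at 152 FPKM, Csf1r at 20.1 FPKM and Adgre1 at 10.3 FPKM, and fat pad replicate 1 held the lymphocyte genes Cd3e at 7.64 FPKM and Cd79a at 9.35 FPKM. Mural cell markers summed to 180 to 456 FPKM in the implanted tumour and 833 to 1060 FPKM in the fat pad, with 5 of 8 called lower. Fibroblast markers summed to 303 to 728 FPKM and 75.2 to 158 FPKM, with the collagens Col1a1, Col1a2 and Col3a1 called higher and Pdgfra, Dcn and Lum not called. Epithelial markers overlapped at 245 to 533 FPKM and 355 to 419 FPKM (1 of 6 called lower), and milk protein genes were at 217 to 338 FPKM and 40.7 to 77.7 FPKM (3 of 5 called higher). Lymphatic markers, 4 of them tested, overlapped in sum at 55.0 to 113 FPKM and 60.8 to 82.3 FPKM, with Flt4 called higher (1.49) and Lyve1 lower (-1.20). Erythroid markers summed to 11.9 to 24.1 FPKM in the implanted tumour and 37.2 to 77.8 FPKM in the fat pad, with 2 of 3 called lower. Adipocyte markers were not analysed here. In such sorted bulk samples, a change in the share of a cell type and a change of RNA per cell cannot be told apart.

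**Figure D1:**
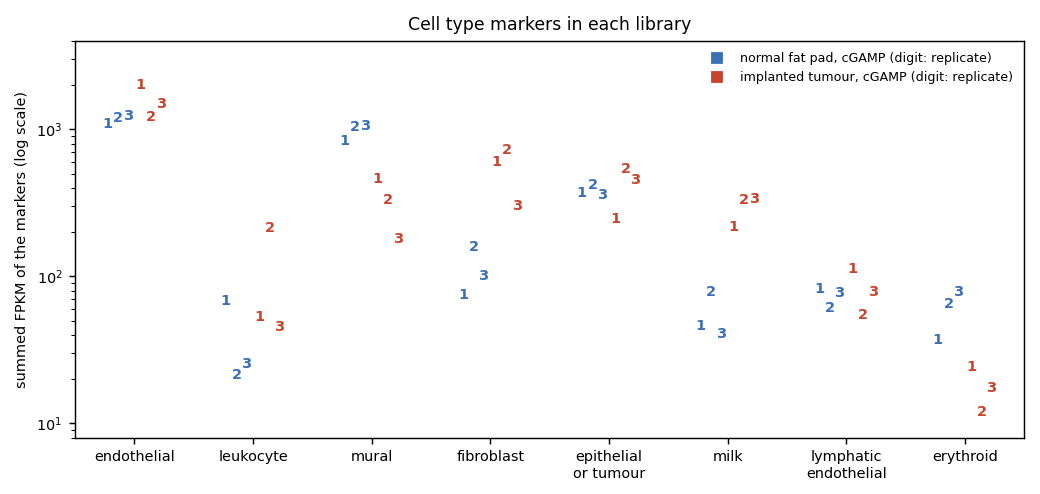
Summed FPKM of the cell type markers in each of the 6 cGAMP libraries, on a log scale, with the digit giving the replicate (blue, fat pad; red, implanted tumour). Leukocyte markers were highest in implanted tumour replicate 2 (213 FPKM), and the mural sums of the groups did not overlap.

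Depth was similar, with 9357486 to 12073615 reads recovered per library in the 6 libraries. Correlations of log2(FPKM + 1) were 0.971 to 0.978 within the fat pad group, 0.967 to 0.978 within the implanted tumour group and 0.851 to 0.890 between them. The 3 libraries of a group differed by more than counting noise.

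A large part of the transcriptome differed between the cGAMP-treated tissues. Of 13983 genes tested, 1262 (9.03%) were called higher in implanted tumour ECs and 724 (5.18%) lower, where a call needs an adjusted p under 0.05 in limma and a difference of at least 1 on the log2(FPKM + 1) scale. All differences below are on that scale, implanted tumour minus fat pad, and errors of differences are standard errors. The levels of the groups did not overlap for 1234 of the higher and 719 of the lower genes. Over all tested genes, called or not, the tumour values all lay above the fat pad values for 31.0% and all below them for 25.9%, so that a lack of overlap is common in these libraries. More than 8-fold differences were found for 53 higher and 30 lower genes. The balance between directions depended on scaling. The deposited values were scaled by a library size of 0.743 to 0.838 times the recovered reads in the implanted tumour. In the fat pad it was 1.106 to 1.161 times the recovered reads. The median difference over all genes was 0.04 in the deposited scaling and -0.33 when each library was scaled by its total reads, where 639 genes were called higher and 1615 lower (28.3% of calls higher, against 63.5%). The quantile-normalized values gave 958 higher and 847 lower. A long noncoding RNA locus, Gm26917, took 11.6% of reads in the implanted tumour and 6.77% in the fat pad, and its part in that shift was not tested. Gene groups are therefore read against the median over all genes.

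Many of these differences were also present after PBS injection. Under PBS, which shares no library with the cGAMP comparison, 803 genes (5.74%) were called higher and 799 (5.71%) lower. Of the genes higher under cGAMP, 536 were also higher under PBS, which is 42.5% of the cGAMP list and 66.7% of the PBS list. Of the genes lower under cGAMP, 491 were also lower under PBS, which is 67.8% and 61.5% of those lists. The test of whether the tumour-normal difference itself changed between PBS and cGAMP called 524 genes (3.75%) with a change towards higher and 131 (0.937%) with a change towards lower relative levels in the tumour. As the difference is signed, a change towards lower levels can be a smaller excess or a wider deficit, and 44 of the 131 genes were called lower in the tumour under cGAMP. Among the 724 genes called higher under cGAMP but not under PBS, 293 passed that test. Among the 232 genes called lower under cGAMP but not under PBS, 38 passed it. A further 90 of the 572 genes called under PBS but not under cGAMP passed it in the direction that closes the gap, 31 of them higher and 59 lower in the tumour under PBS.

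**Figure D2:**
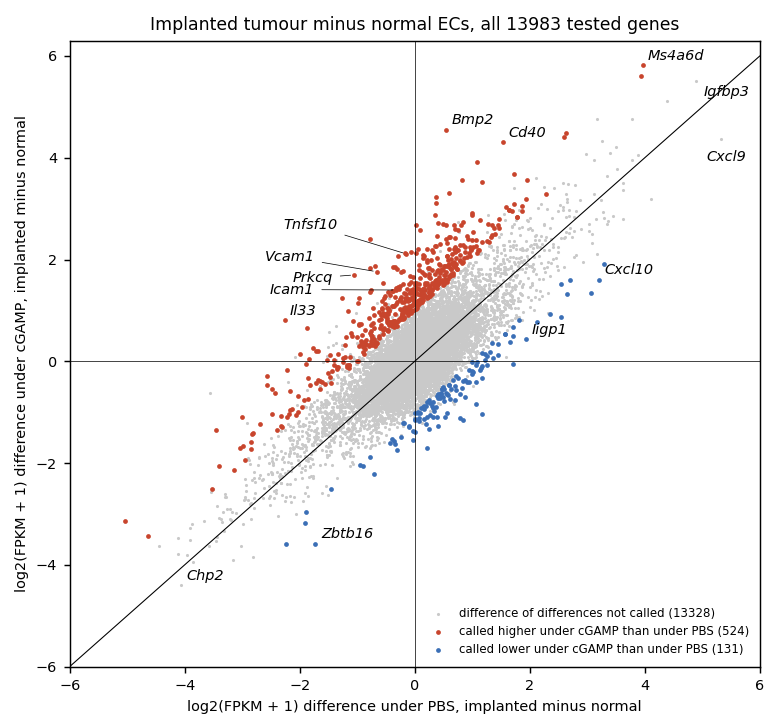
Difference between implanted tumour and fat pad ECs under cGAMP (vertical axis) against that under PBS (horizontal axis) for all tested genes, with genes that passed the test of the change between both in red (524, higher) or blue (131, lower). Genes on the diagonal line kept the same difference, and Bmp2, Cd40 and Il33 lie far above it.

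Among the 12 largest excesses in cGAMP-treated tumour ECs were those of Ms4a6d, Serpina3g, Igfbp3, Serpina3f, Klk10, Spp1, Bmp2, Oas3, Cxcl9, Cd74 and Cd40. Igfbp3, which encodes a secreted carrier of insulin-like growth factors, was at 2166, 1228 and 1506 FPKM in the implanted tumour and at 31.0, 37.0 and 34.2 FPKM in the fat pad. Its difference was 5.51 ± 0.22, and at 4.89 under PBS it had been nearly as large, with no called change between treatments. Serpina3g and Serpina3f, neighbouring interferon-inducible protease inhibitor genes, differed by 5.603 and 5.11, although reads of this multigene family may be split between copies. Serpina3g reached 514, 331 and 297 FPKM against 7.34, 8.45 and 4.63 FPKM. Klk10, a secreted kallikrein, and Spp1, the matrix protein osteopontin, each differed by 4.76, and Cd40, a TNF receptor family member on antigen-presenting cells and activated ECs, by 4.31. None of these genes overlapped between the groups.

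Ms4a6d, a membrane protein gene known from macrophages, had the largest difference of all genes (5.82 ± 0.26). It stood at 115, 61.2 and 79.0 FPKM in the implanted tumour and at 0.805, 0.205 and 0.477 FPKM in the fat pad. Without replicate 2, in which leukocyte markers were highest, the difference was 6.03, and the part of leukocytes in it was not tested. Ms4a6b, a lymphocyte-associated relative, was at 15.6, 15.2 and 9.98 FPKM against 6.89, 0.396 and 0.821 FPKM, with the high fat pad value in replicate 1, which held the lymphocyte genes above. Its difference was 2.40 with that fat pad replicate and 3.17 without it.

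The 12 largest deficits included genes known from fat tissue. Aqp7, a glycerol channel of fat tissue capillaries and adipocytes, was at 0.296, 0.883 and 0.664 FPKM in the implanted tumour and at 17.6, 18.1 and 33.2 FPKM in the fat pad. Chp2 (-4.40), Cdo1 (-3.94), Tmem182 (-3.90), H2-M9 (-3.80), Tmem56 (-3.78), Car3 (-3.63), Areg (-3.62), Npy1r (-3.62), Zbtb16 (-3.59), Slc5a5 (-3.58) and Adh1 (-3.54) made up the rest of the 12 largest. Cdo1 encodes cysteine dioxygenase, Car3 a carbonic anhydrase abundant in fat, Areg an epidermal growth factor receptor ligand, Npy1r a neuropeptide Y receptor and Adh1 an alcohol dehydrogenase. Each of these 12 genes was called lower under PBS as well, and no library of one group overlapped the other. Car3, Cdo1 and Adh1 are also known from adipocytes, and the part of such cells was not tested. Npy1r is expressed by mural cells too, whose markers were lower in the tumour.

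Tmem173, the STING gene, was called higher in tumour ECs. Tmem173 stood at 92.7, 82.1 and 72.1 FPKM in the implanted tumour and 32.6, 28.3 and 23.2 FPKM in the fat pad, without overlap. Its difference was 1.53 ± 0.15 under cGAMP and 1.02 under PBS, and the change between both was not called (0.51, adjusted p = 0.0984 in limma). It stood just below the fold limit, at 0.99, with quantile-normalized values. It was the only one of the 10 tested genes of STING signalling and cGAMP import that was called, a share near that over all genes, and the list median was 0.29. Tbk1 was at 36.9, 26.8 and 28.6 FPKM against 16.0, 16.9 and 14.7 FPKM, a difference of 0.90 that stayed under the fold limit (adjusted p = 3.74e-06 in limma) but exceeded the PBS difference by 1.12 in a called change. Ikbke, a related kinase gene, differed by 0.60, and Lrrc8a, a subunit of the channel that carries cGAMP, by -0.75, both under the fold limit. Irf3 differed by 0.31 in the deposited scaling and by -0.11 with total-read scaling, and was not called in either.

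Ifnar1 and Ifngr1, interferon receptor genes, were not called, and several transducers downstream were. Of 17 genes of the receptor and signalling list, 7 were called higher and none lower (median 0.82), and with total-read scaling 4 were. Ifnar1 differed by 0.40 and Ifngr1 by -0.07, with Ifnar1 at -0.06 under total-read scaling. Irf7, the amplifier of type I interferon transcription, was at 215, 179 and 179.6 FPKM in the implanted tumour and 39.6, 36.0 and 28.6 FPKM in the fat pad, without overlap. It differed by 2.44, Usp18, a negative regulator of the interferon receptor, by 2.29, and Irf8 by 1.85. Stat2 (1.41), Socs1 (1.15) and Jak2 (1.12) were also called. Irf1, in contrast, overlapped between the tissues, at 166, 138 and 122 FPKM against 152, 137 and 158 FPKM (difference -0.08, adjusted p = 0.624 in limma).

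Most antiviral genes were called higher in tumour ECs, and the abundant Ifit1 was an exception. Of 22 antiviral genes, 19 were called higher and none lower, with a median of 1.65. With total-read scaling 12 were called higher and none lower, and with quantile normalization 12 higher and 1 lower. Oas3, an oligoadenylate synthetase that activates RNase L, was at 26.7, 37.8 and 32.1 FPKM against 0.988, 0.478 and 0.286 FPKM. Zbp1, a sensor of Z-form nucleic acid that can start necroptosis, was at 83.1, 73.2 and 75.2 FPKM against 6.53, 3.40 and 2.87 FPKM. Neither gene overlapped between groups, and their differences were 4.40 and 3.95. Oas1a (3.51) and Oas2 (3.02) followed. Mx1, a dynamin-like antiviral GTPase, gained its difference under treatment, from 0.38 under PBS to 2.04 under cGAMP, a called change of 1.66. Ifit1 did the opposite. It was at 709, 732 and 667 FPKM in the implanted tumour and at 833, 801 and 635 FPKM in the fat pad, overlapping fully, whereas under PBS the tumour had exceeded the fat pad by 1.17, and the change of -1.26 was called.

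The interferon-gamma-type GTPases were split. Of 12 measured guanylate-binding and immunity-related GTPases, 9 were called higher and none lower (median 1.86). Gbp2, at 2114, 1345 and 1529 FPKM against 364, 409 and 237 FPKM, was the most abundant of those named, with a difference of 2.31. Gbp10 (3.07), Gbp3 (2.27) and Igtp (1.95) were also called. The test of the change against PBS called Gbp9 with a larger excess in the tumour under cGAMP and Irgm1, Irgm2, Iigp1 and Tgtp1 with a smaller one. Iigp1 was the clearest of these, at 404, 329 and 356 FPKM in the tumour and 287, 287 and 234 FPKM in the fat pad under cGAMP, and at 110, 79.6 and 86.4 FPKM against 22.4, 24.8 and 21.98 FPKM under PBS. Its difference went from 1.94 to 0.43. GTPase genes of these families have close copies, so their reads may be divided between members.

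Chemokines separated the tissues strongly. Of 12 measured chemokines, 9 were called higher and 1 lower, with a median of 2.08. Cxcl9, a ligand of the T cell receptor CXCR3, stood at 2225, 1119 and 1273 FPKM in the implanted tumour and 68.8, 98.4 and 51.9 FPKM in the fat pad. Cxcl11, the gene of another CXCR3 ligand but annotated as a polymorphic pseudogene, was at 606, 331 and 371 FPKM against 21.5, 32.3 and 14.6 FPKM. Both were free of overlap, with differences of 4.36 ± 0.31 and 4.21 ± 0.26. Whether Cxcl11 yields a protein in these mice was not tested. Cxcl10, the third CXCR3 ligand, differed less, at 1747, 1071 and 1110 FPKM against 439, 506 and 333 FPKM (1.60 ± 0.22). Under PBS it had been at 24.9, 16.1 and 14.5 FPKM against 1.24, 1.16 and 0.820 FPKM, a difference of 3.20, and the narrowing by 1.60 was called. With quantile-normalized values its difference under cGAMP was 0.64 and no longer passed the fold limit. Ccl2, which attracts monocytes, took the opposite course, at 401, 166 and 134 FPKM against 28.2, 65.8 and 27.2 FPKM, with a difference of 2.45 that exceeded the PBS difference by a called 1.54. Ccl7 (2.19) and Ccl5 (1.82) also widened. Cxcl12, the ligand of CXCR4, was the only chemokine called lower, at 51.5, 37.6 and 33.4 FPKM against 97.8, 102 and 168 FPKM. Ccl8 (3.61) was at 72.1 FPKM in the leukocyte-rich implanted replicate 2 and at 20.1 and 10.1 FPKM in the other two, and without replicate 2 its difference was 2.85.

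The promoter sequences of 4 genes with large differences show what such a start region holds. They are the 250 bases before the RefSeq start site in build GRCm38.p6, read 5′ to 3′ on the strand of the gene, with matches in capitals. The genes were chosen after their values were seen, because Cxcl9 and Cxcl10 share a receptor and moved unequally, Serpina3g was among the largest differences and Ldha stands for glycolysis. The letters searched, on both strands, were the interferon-stimulated response element core GAAANNGAA, the gamma-activated site core TTCNNNGAA and the hypoxia response core ACGTG, which when preceded by C overlaps itself on the other strand.
Cxcl9, chr5:92328080-92328329, minus strand: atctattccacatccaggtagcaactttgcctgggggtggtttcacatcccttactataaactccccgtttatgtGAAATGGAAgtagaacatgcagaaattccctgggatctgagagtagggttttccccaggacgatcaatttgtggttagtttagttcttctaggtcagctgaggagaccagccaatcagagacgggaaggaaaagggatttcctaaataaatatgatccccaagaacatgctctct
Cxcl10, chr5:92348890-92349139, minus strand: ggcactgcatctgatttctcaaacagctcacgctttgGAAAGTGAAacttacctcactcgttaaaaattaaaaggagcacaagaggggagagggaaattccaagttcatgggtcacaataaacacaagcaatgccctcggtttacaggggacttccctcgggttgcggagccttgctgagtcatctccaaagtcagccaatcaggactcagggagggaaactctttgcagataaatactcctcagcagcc
Serpina3g, chr12:104235897-104236146, plus strand: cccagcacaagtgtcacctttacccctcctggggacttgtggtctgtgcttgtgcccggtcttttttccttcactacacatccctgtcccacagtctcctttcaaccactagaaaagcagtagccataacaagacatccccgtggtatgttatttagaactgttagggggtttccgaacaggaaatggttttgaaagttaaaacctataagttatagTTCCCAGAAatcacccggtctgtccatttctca
Ldha, chr7:46845554-46845803, plus strand: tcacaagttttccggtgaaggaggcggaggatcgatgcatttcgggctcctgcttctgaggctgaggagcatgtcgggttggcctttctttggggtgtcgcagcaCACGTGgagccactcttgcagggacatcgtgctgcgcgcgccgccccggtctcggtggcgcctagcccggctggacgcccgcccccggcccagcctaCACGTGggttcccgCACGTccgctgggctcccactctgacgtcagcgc
Cxcl9 and Cxcl10 each held 1 GAAANNGAA match, beginning 175 and 213 bases before the start. Serpina3g held 1 TTCNNNGAA match, 33 bases before the start, and Ldha held 5 ACGTG matches counted over both strands. Ldha has a second start in the table, whose window held none of these letters. Of all 27025 genes in the RefSeq table, 8.2% held the first motif, 8.1% the second and 18.5% the third. Of the tested genes 71.0% had a promoter in the table, and 25.0% of those held ACGTG. In the glycolysis and hypoxia list 14 of 21 genes with a promoter in the table held ACGTG (66.7%), and in the MHC class I list 4 of 16 held GAAANNGAA (25.0%). The other 5 lists searched had promoters in the table for under 80% of their genes, and no share is compared for them. A match of letters describes a sequence and not a bound site.

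**Figure D3:**
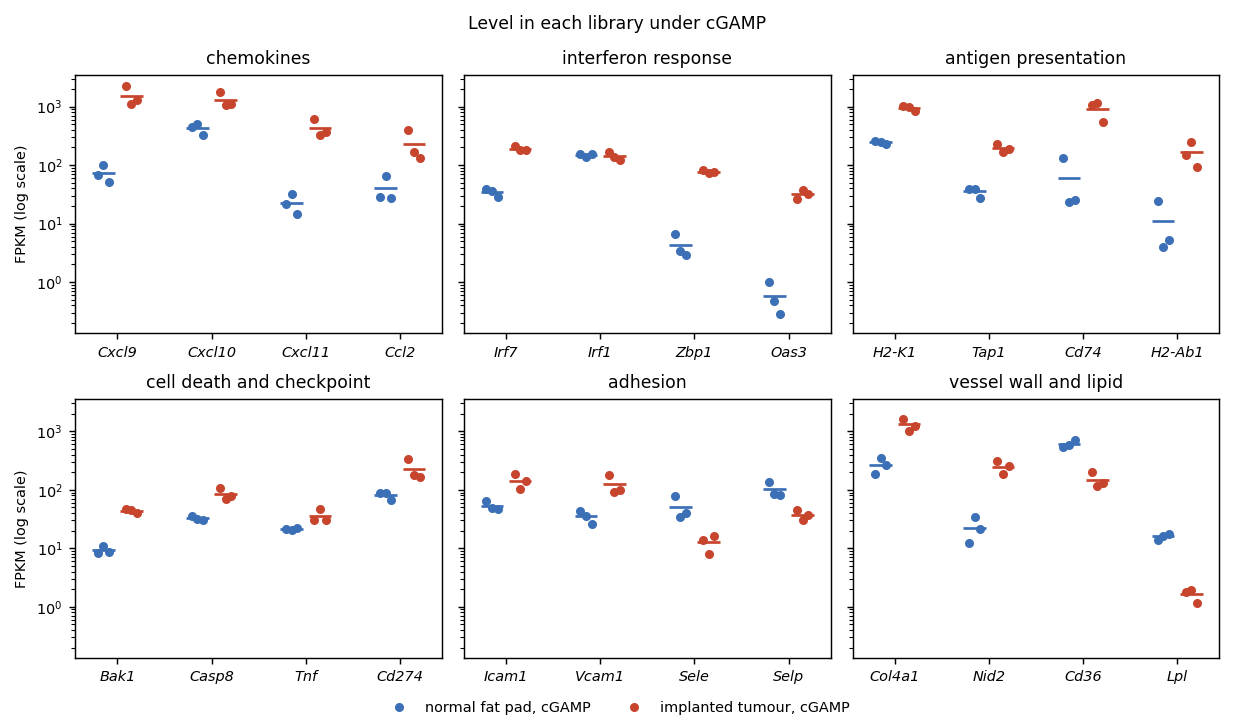
FPKM on a log scale in each of the 6 cGAMP libraries for genes of 6 groups (blue, fat pad; red, implanted tumour; points, single libraries; bars, means of 3). Cxcl9 sits between 1119 and 2225 FPKM in the tumour and below 98.5 FPKM in the fat pad, whereas Irf1 overlaps between tissues and Sele, Selp, Cd36 and Lpl are lower in the tumour.

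Most listed antigen presentation genes were called higher in tumour ECs. Of 19 genes for MHC class I chains, peptide transport and the immunoproteasome, 18 were called higher and none lower, with a median of 1.91, and the exception was Erap1 (0.61). H2-K1, a classical class I chain, stood at 1043, 972 and 854 FPKM in the implanted tumour and 255, 253 and 225 FPKM in the fat pad. Tap1, the peptide transporter, was at 226, 169 and 188 FPKM against 39.7, 39.8 and 27.1 FPKM. The groups were apart for both genes, and their differences of 1.96 and 2.43 were close to those under PBS (1.85 and 2.54). H2-Q7 (2.84), H2-T22 (2.65) and H2-Q6 (2.62) had the largest differences, with the reserve that near-identical class I genes share reads. Tap2, Tapbpl and Psmb10 were the class I genes whose difference was called larger under cGAMP than under PBS, by 1.19, 1.41 and 1.46.

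Class II genes showed the largest list median, 3.05, with all 8 genes called higher both under cGAMP and under PBS and none in the test of the change. Cd74, the invariant chain that escorts class II molecules, was at 1060, 1155 and 552 FPKM in the implanted tumour and 131, 23.5 and 24.8 FPKM in the fat pad. H2-Ab1 was at 150, 253 and 93.3 FPKM against 24.4, 3.91 and 5.16 FPKM. In both genes the highest fat pad value belonged to replicate 1, with its lymphocyte markers, and the highest tumour value to replicate 2, with its macrophage markers. Ctss, a protease that trims the invariant chain, was at 241 FPKM in implanted replicate 2 and at 49.2 and 51.2 FPKM in the other two. Without implanted replicate 2 the differences were 4.13 for Cd74, 3.70 for H2-Ab1 and 2.65 for Ctss, against 4.33, 4.07 and 3.40 with it, and without fat pad replicate 1 they were 5.13, 4.80 and 4.09. All 8 genes were called in either case. Ptprc, the pan-leukocyte CD45 gene, was at 1.80, 9.24 and 1.70 FPKM in the tumour and 9.73, 0.903 and 0.985 FPKM in the fat pad, and Lyz2 was at 38.3, 152 and 31.8 FPKM against 31.4, 10.5 and 13.2 FPKM. The part of leukocytes in the class II differences was not tested.

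More checkpoint and tolerance genes were called under cGAMP than under PBS. Of 10 genes, 7 were called higher under cGAMP and 3 under PBS, with medians of 1.30 and 0.11, and 6 were called in the test of the change. With total-read scaling 3 were called higher under cGAMP, and with quantile normalization 4. Tnfsf10, which encodes the death ligand TRAIL, was at 208, 151 and 169 FPKM in the implanted tumour and 46.1, 39.1 and 34.5 FPKM in the fat pad. Under PBS the tissues had overlapped, at 22.8, 19.7 and 21.02 FPKM against 21.04, 25.3 and 24.5 FPKM. The difference rose by a called 2.26 ± 0.21. Nos2, the inducible nitric oxide synthase, was at 90.6, 73.4 and 51.8 FPKM against 2.95, 5.23 and 5.91 FPKM (3.68). Cd274, the PD-L1 gene, was at 334, 181 and 166 FPKM against 87.2, 87.9 and 67.6 FPKM. Its difference of 1.41 fell under the fold limit with total-read scaling (0.92) and quantile normalization (0.84), and its change against PBS was not called (0.69, adjusted p = 0.185 in limma). Ido1, the tryptophan-degrading enzyme, differed by 1.36 after a called change of 1.82.

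Leukocyte adhesion genes were called in both directions. Of 14 genes, 4 were called higher and 8 lower, with a median of -1.22, and with total-read scaling or quantile normalization 2 were called higher. Vcam1 and Icam1, ligands of leukocyte integrins, were higher, as were F11r (1.58), a junctional adhesion molecule, and the sialomucin gene Cd34 (1.42). Vcam1 was at 179, 93.1 and 101 FPKM against 43.2, 36.3 and 25.9 FPKM, and Icam1 was at 188, 102 and 143 FPKM against 64.3, 48.1 and 46.5 FPKM. Neither overlapped under cGAMP. Their differences were 1.76 and 1.40. Under PBS the differences had been -0.66 and -0.32, neither of them called, and the changes of 2.42 and 1.72 were called. Icam1 fell under the fold limit with total-read scaling (0.91) and quantile normalization (0.83). The endothelial selectins were lower. Sele, which slows rolling leukocytes, was at 14.1, 7.92 and 16.6 FPKM against 79.9, 34.3 and 39.5 FPKM (-1.87), and Selp was at 44.7, 30.9 and 36.7 FPKM against 138, 86.2 and 81.6 FPKM (-1.40). Both had been lower under PBS, and neither change was called. Glycam1 (-3.52), an L-selectin ligand, Jam2 (-1.88), another junctional adhesion molecule, and Ackr1 (-1.43), the atypical chemokine receptor of venules, were called lower too. The deficit of Ackr1 was smaller than under PBS (-2.83) by a called 1.40.

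Genes of TNF and death receptors were called in both directions under cGAMP, and several differed from their PBS difference. Of 16 genes, 3 were called higher (18.8%) and 1 lower (6.25%), with a median of 0.56. Over all tested genes these shares were 9.03% and 5.18%. The test of the change called 7 towards higher and 1 towards lower levels in the tumour, against 3.75% and 0.937% of all tested genes. Tnf was at 30.8, 47.4 and 30.0 FPKM in the implanted tumour and 21.04, 20.2 and 21.9 FPKM in the fat pad. Its difference of 0.72 stayed under the fold limit after 1.49, a called value, under PBS, and the change was not called. Its receptor gene Tnfrsf1a differed by -0.41 and was not called. Casp8, the initiator caspase of death receptors, was at 109, 70.8 and 77.8 FPKM against 36.0, 31.6 and 30.7 FPKM, having overlapped under PBS at 28.3, 28.9 and 22.1 FPKM against 22.98, 24.0 and 25.1 FPKM. The difference of 1.34 and its change of 1.22 were both called, although total-read scaling (0.85) and quantile normalization (0.78) put the difference under the fold limit. Traf1 (1.52) was called higher, and Fas, the CD95 receptor, lower (-1.04). The call of Fas was lost without fat pad replicate 1 (-0.91) or implanted tumour replicate 2 (-0.95). The caspase 8 inhibitor gene Cflar was not called under cGAMP (0.86), but its change against PBS was (1.08).

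Effectors of apoptosis were called higher in part, while calls of its inhibitors depended on the processing. Of 15 caspase, BAX-like and BH3-only genes, 8 were called higher and none lower (median 1.05). Under PBS 3 were called higher and none lower (median 0.32), and the test of the change called 2, both towards higher levels in the tumour. Bak1, a pore former of the mitochondrial membrane, was at 46.3, 44.4 and 40.2 FPKM against 8.45, 10.8 and 8.49 FPKM (2.13). Bcl2l11 (1.74), Apaf1 (1.46), Bbc3 (1.21), Bid (1.11) and Bax (1.05) followed. With total-read scaling 3 genes of the list were called higher, where the median over all genes was -0.33. None of 6 inhibitors was called (median -0.14), while under PBS 1 was called higher. So was 1 under cGAMP with quantile normalization, a pseudocount of 0.1, voom or implanted tumour replicate 1 left out. With total-read scaling 1 was called lower. The inhibitor genes Bcl2a1a, Bcl2a1b and Bcl2a1d were not analysed here. Among 10 necroptosis and pyroptosis genes 7 were called higher and none lower (median 1.51), against 2 under PBS. Casp1 was at 24.4, 27.6 and 31.2 FPKM against 6.68, 4.51 and 3.81 FPKM, and Gsdmd, whose product forms the pyroptotic pore, was at 30.3, 22.6 and 21.3 FPKM against 7.27, 5.91 and 6.81 FPKM. Their differences of 2.28 and 1.73 had each grown by a called amount, 1.49 and 1.30. Mlkl (1.72) was already higher under PBS. Il1b was at 28.2 FPKM in the macrophage-rich implanted replicate 2 and at 6.77 and 4.25 FPKM in the other two, and differed by 2.06 without it and 2.79 with it.

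Of 12 NF-kB subunits and feedback genes, 3 were called higher and none lower (median 0.76), and none under PBS. All of the called genes were feedback inhibitors or their partners. Tnip1, a partner of A20, was at 160, 78.3 and 89.3 FPKM against 19.0, 24.4 and 18.8 FPKM (2.28), Nfkbie differed by 1.78, and Nfkbib by 1.0006, which fell under the fold limit in several alternatives, among them total-read scaling (0.56). Of 11 complement genes, Cfb (2.25) and C4b (1.17) were called higher (18.2%) and none lower (median 0.09). Over all tested genes 9.03% were called higher and 5.18% lower. The call of C4b was lost without fat pad replicate 2 (0.89) or implanted tumour replicate 2 (0.90). It was also lost with total-read scaling (0.71, adjusted p = 0.0649 in limma) and quantile normalization (0.93). Complement genes called higher and lower numbered 1 and 3 with total-read scaling, and 1 and 2 with quantile normalization.

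Many tip-cell and angiogenic genes were called higher in tumour ECs under either treatment. Of 20 tip-cell and angiogenic genes, 13 were called higher and none lower, with medians of 1.78 under cGAMP and 1.31 under PBS, and none in the test of the change. Nid2, a basement membrane protein, was at 310, 186 and 253 FPKM against 12.1 to 34.3 FPKM, and the chemokine receptor gene Cxcr4 was at 203, 154 and 168 FPKM against 25.4, 17.6 and 10.8 FPKM. No library overlapped in either, and the differences were 3.501 and 3.29. Esm1 (2.85) and Apln (2.81), markers of sprouting cells, were also higher. Within tumour ECs the mean of Esm1 was 129 FPKM under PBS and 60.3 FPKM under cGAMP, and that of Apln 98.7 and 51.4 FPKM, a contrast between treatments that was not tested here. The basement membrane and matrix list held 16 genes called higher and 1 lower of 20 (median 1.95). Col4a1, a chain of basement membrane collagen, was at 1649, 1029 and 1257 FPKM against 185, 352 and 267 FPKM (2.31), Col4a2 differed by 2.46 and Lama4 by 2.48. Fibroblast collagens, which many stromal cells make, were higher in the same libraries (Col1a1 at 370, 456 and 191 FPKM against 19.5, 45.8 and 27.3 FPKM), and their part in the matrix differences was not tested. Of 14 proteases and inhibitors, 5 were called higher, among them Timp1 (2.19), Mmp14 (1.84) and Plau (1.38), and 2 lower, Timp4 (-3.12) and Adamts1 (-1.05). With total-read scaling 2 were called higher and 3 lower.

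Most glycolysis genes were called higher in tumour ECs. Of 22 glycolysis and hypoxia genes, 18 were called higher and none lower, and the medians were 1.51 under cGAMP and 1.48 under PBS. With total-read scaling 12 were called higher, and with quantile normalization 11. Pkm, pyruvate kinase, was at 381, 361 and 327 FPKM in the implanted tumour and 67.8, 70.2 and 61.1 FPKM in the fat pad, with a difference of 2.41 under cGAMP and 2.37 under PBS. Egln3, an oxygen sensor that hypoxia induces, was at 25.9, 32.5 and 34.1 FPKM against 3.18, 4.64 and 3.32 FPKM. Adm (2.67), Slc16a3 (2.60), a lactate exporter, and Ldha (1.18), lactate dehydrogenase, whose promoter is shown above, were called higher as well. No value overlapped for Pkm or Egln3. Of 24 proliferation genes, 7 were called higher and none lower under cGAMP (median 0.71), against 15 under PBS (median 1.18), and the change was called for 2, Rrm2 and Tk1, both towards lower levels in the tumour. The count of 7 ranged from 4 (without fat pad replicate 1 or 3) to 10 (without fat pad replicate 2 or implanted tumour replicate 1) and was 1 with total-read scaling, 3 at a mean of at least 5 FPKM, 9 with quantile normalization, 11 at a pseudocount of 0.1 and 12 with voom on recovered reads. Plk1 was at 4.30, 6.001 and 6.52 FPKM against 0.516, 2.47 and 0.586 FPKM. None of 16 cholesterol synthesis genes was called (median 0.10).

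**Figure D4:**
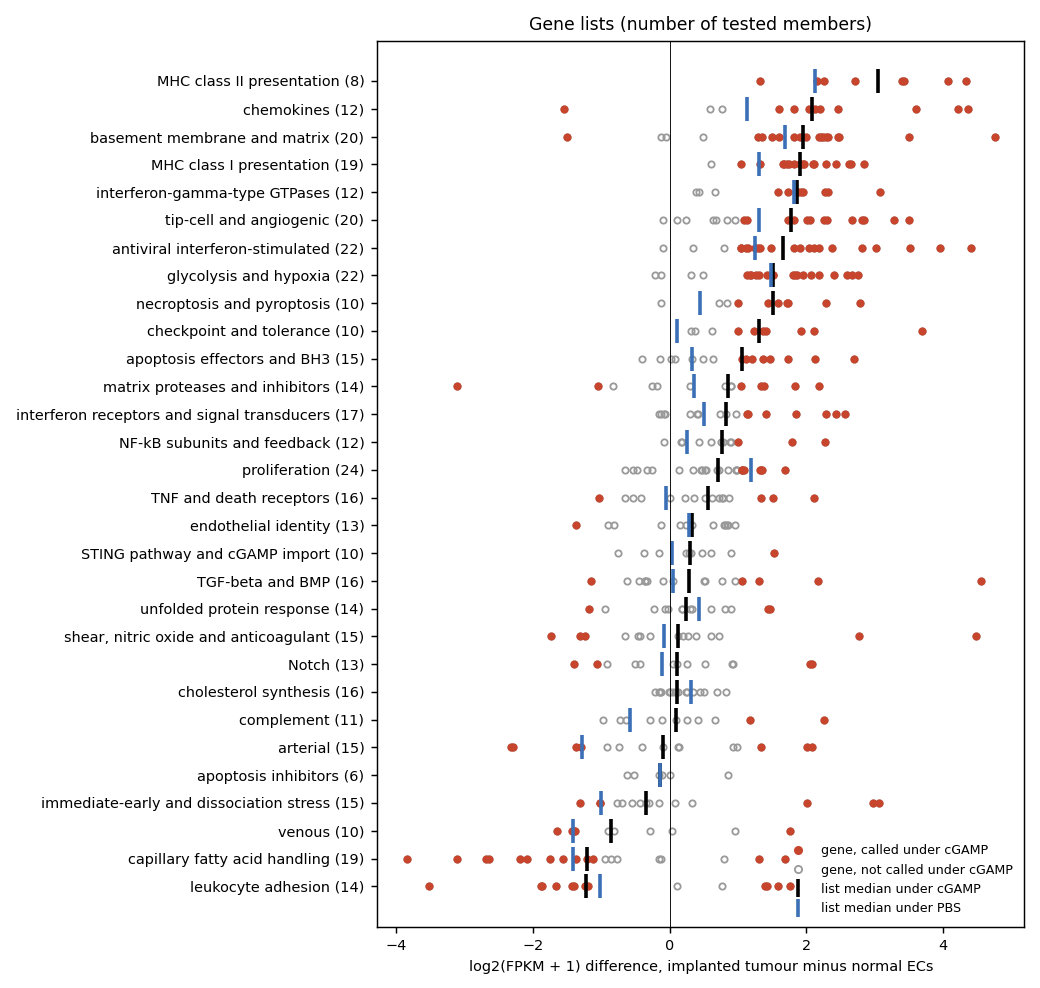
Difference between implanted tumour and fat pad ECs under cGAMP for each tested gene of 30 lists (points, red where called), with the list medians under cGAMP (black) and PBS (blue). MHC class II genes have the highest median (3.05) and leukocyte adhesion genes the lowest (-1.22), and the checkpoint list has medians of 1.30 and 0.11.

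Most listed genes of adipose capillaries were called lower in tumour ECs under cGAMP and under PBS. Of 19 genes of capillary fatty acid handling, 11 were called lower and 2 higher under cGAMP, and the same numbers held under PBS (medians -1.21 and -1.41), with none in the test of the change. Cd36, the fatty acid translocase, was at 199, 115 and 129 FPKM against 545, 593 and 712 FPKM, and Fabp4 at 108, 63.1 and 86.0 FPKM against 274, 280 and 296 FPKM. Lpl, lipoprotein lipase, was at 1.82, 1.96 and 1.14 FPKM against 13.9, 16.2 and 17.8 FPKM, and Rbp7, a retinol-binding protein of fat endothelium, differed by -2.64. These 4 genes were free of overlap. Meox1 (1.69) and Car4 (1.31) were the members called higher.

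Arterial and venous identity moved in part. Of 15 arterial genes, 3 were called higher and 4 lower (median -0.09), against 2 and 9 under PBS (median -1.28), and the change was called for 5, all towards higher tumour levels. Gja5, connexin 40, had been lower in the tumour under PBS (-1.34) and overlapped under cGAMP at 6.89, 6.21 and 7.17 FPKM against 8.51, 4.90 and 5.25 FPKM. Sema3g stayed lower, at 21.2, 16.8 and 19.7 FPKM against 110, 83.5 and 102 FPKM, as did Bmx (-2.32), while Notch4 (2.07) and Unc5b (2.01) were higher. Of 10 venous genes, 4 were called lower, among them Apoe (-1.65), and 1 higher (Vcam1), with a median of -0.85. In the Notch list of 13 genes (median 0.11), Notch4 and Dll4 (2.05) were called higher and Heyl (-1.40) and Lfng (-1.06) lower. That is 15.4% each way, beside 9.03% and 5.18% over all tested genes. Lfng fell under the fold limit without fat pad replicate 1 (-0.88) or implanted tumour replicate 3 (-0.84). Heyl is a mural cell gene as well, and mural markers were lower in the same libraries. The receptor gene Notch3, counted with those markers and not in the Notch list, was called lower (-2.20).

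Of 15 genes for shear response, vascular tone and clotting, 2 were called higher and 3 lower. Klf4, a shear-induced transcription factor, was at 39.3, 27.1 and 28.9 FPKM against 84.0, 66.1 and 77.5 FPKM, a difference of -1.24 that was smaller than under PBS (-2.69) by a called 1.45. Edn1, endothelin, showed the same course, from -1.71 to 0.20. Ptgs2, the inducible cyclooxygenase, was higher (2.77) and Ptgs1 lower (-1.74). Ptgs2 was at 23.15 FPKM in the macrophage-rich implanted replicate 2 and at 11.4 and 7.72 FPKM in replicates 1 and 3. The part of leukocytes in its difference was not tested. Thbd, the anticoagulant thrombomodulin, was at 53.0, 34.6 and 48.2 FPKM against 127, 101 and 110 FPKM.

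Heat shock genes and immediate-early genes, which also respond to tissue dissociation, were called in both directions. Of 15 such genes (median -0.34), Hspa1a (2.97), Hspa1b (3.05) and Hsph1 (2.01) were called higher and Egr1 (-1.32), Fos (-1.02) and Fosb (-1.02) lower. The lower count of 3 was 1 without implanted tumour replicate 1 and 2 without fat pad replicate 1, fat pad replicate 3 or implanted tumour replicate 3, and it was 6 with total-read scaling and 7 with quantile normalization. Hspa1b was at 133, 129 and 151 FPKM against 14.7, 14.02 and 18.5 FPKM, although reads of Hspa1a and Hspa1b cannot be separated fully. Of 14 unfolded protein response genes, Trib3 (1.46) and Sdf2l1 (1.43) were called higher and Dnajb9 (-1.18) lower. The median of that list was 0.24. Its shares of 14.3% and 7.14% stand beside 9.03% and 5.18% over all tested genes. In the TGF-beta and BMP list, 4 of 16 genes were called higher (25.0%) and 1 lower (6.25%), with a median of 0.28. Bmp2 led them, followed by Tgfbi (2.17), Tgfb1 (1.31) and Id2 (1.06), and Id1, a target of BMP receptors, was lower (-1.15, or -0.91 and not called without implanted tumour replicate 2).

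Bmp2 showed the largest change of any gene between the PBS and cGAMP differences. This secreted growth factor was at 352, 171 and 169 FPKM in cGAMP-treated tumour ECs and at 8.20, 7.25 and 9.45 FPKM in cGAMP-treated fat pad ECs. Under PBS the levels overlapped, at 19.1, 8.20 and 10.7 FPKM against 7.27, 7.02 and 9.45 FPKM. The difference rose from 0.55 to 4.55, a change of 4.01 ± 0.40 (adjusted p = 1.08e-05 in limma with Benjamini-Hochberg adjustment). Cd40 rose by 2.77, from 4.18, 4.21 and 3.12 FPKM against 0.671, 0.594 and 0.704 FPKM under PBS to 63.1, 39.8 and 46.2 FPKM against 2.05, 1.46 and 1.11 FPKM.

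Il33, an alarmin held in EC nuclei, was called lower in the tumour under PBS and not called under cGAMP. It was at 1.11, 0.822 and 1.09 FPKM in PBS-injected tumour ECs and at 6.57, 9.76 and 9.94 FPKM in PBS-injected fat pad ECs. After cGAMP it was at 7.71, 10.9 and 3.73 FPKM in the tumour and 3.21, 2.99 and 4.43 FPKM in the fat pad, overlapping. The difference of 0.81 under cGAMP passed the fold limit only without implanted tumour replicate 3 (1.18), and the change against PBS was 3.07 ± 0.35. Genes called in opposite directions under PBS and cGAMP numbered 3 and are named because they were few, after their values were seen. Prkcq, protein kinase C theta, was at 12.2, 8.06 and 9.49 FPKM against 4.69, 1.83 and 1.29 FPKM under cGAMP and at 0.665, 0.510 and 0.300 FPKM against 1.85, 1.70 and 2.79 FPKM under PBS. Tmem158 went from -1.27 to 1.23. Snord49a, a small nucleolar RNA with 2 to 12 reads per library, went from 1.17 to -1.04.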

How the data were processed

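Total RNA of sorted ECs was sequenced from directional libraries in 18 samples (6 groups of 3). The authors aligned reads with STAR 2.7 to mm10, counted them with HTSeq and deposited 1 table of FPKM values for 16248 genes. Whether counting used the strand and how the table was normalized were not given in the sources used here, so overlapping and antisense genes cannot be told apart. Sample groups came from the labels, and the members compared, the gene lists and the tests were chosen with earlier results of these data known.

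Genes with at least 1 FPKM in at least 3 of 18 libraries (13983) were tested on log2(FPKM + 1) with limma 3.58.1 (R 4.3.3): 1 mean per group, all 18 libraries (12 residual degrees of freedom), moderated variance with trend, 2-sided, Benjamini-Hochberg adjustment over all tested genes. Calls needed adjusted p under 0.05 and a log2 difference of at least 1. Contrasts were implanted minus normal under cGAMP, under PBS, and the difference between both. The p-values measure the spread between these libraries. The scale understates changes of low genes. The filter uses the mixture of all groups, so a gene high in 1 group only could pass.

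FPKM values were whole multiples of 1 read at GENCODE M21 exon lengths for nearly all genes, so reads were recovered for 99.57% of genes (whole in all 18 libraries within 0.02 reads plus 0.02% of the count, which is no check for large counts). This gave 9087782 to 12073615 reads per library over all samples, with 1 read in a 1 kb transcript worth 0.0753 to 0.1196 FPKM. The table lists only genes above 0 in all 18 libraries, so a gene silent in any library was not analysed here. Recovered reads served for total-read scaling and for voom, both alternatives.

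Named genes were the 12 largest called differences per direction without overlap, the 6 largest per direction in the test of the change, up to 4 called genes per list by size, and a set of 21 fixed genes of STING, interferon, TNF, apoptosis, adhesion and endothelial identity; other genes quoted were chosen after their values were seen. Some genes that these rules name are not reported here. The 30 lists were described by counts and medians. Deviations of same-numbered samples from their group means correlated at -0.291 to 0.263 over the cGAMP and PBS groups of both tissues. Promoter sequences came from RefSeq (GRCm38.p6). The table held 16 symbols turned into dates, which were left as they were. Alternatives were another pseudocount, filters, scalings, voom, fewer libraries, a replicate block, no fold limit and leaving out each library; those for the PBS count, for the genes of the test of the change and for the lists were chosen after seeing the data.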

Additional observations from a re-analysis of the deposited data

Results flagged for a closer look

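The tumour-normal difference of 12 genes was named from the test of its change between PBS and cGAMP (limma, Benjamini-Hochberg adjustment over 13983 genes). Bmp2 (4.01), Ms4a6b (3.17), Il33 (3.07), Ifit1bl1 (2.85), Gm10851 (2.83) and Cd40 (2.77) had the largest changes towards higher levels in the tumour. Ifit1bl1, an interferon-inducible relative of Ifit1, was at 135, 98.8 and 124 FPKM against 15.7, 10.7 and 9.53 FPKM under cGAMP, and voom on recovered reads gave 1.98 with an adjusted p of 0.157. Gm10851 was at 87.2, 31.5 and 45.6 FPKM against 2.80, 2.64 and 1.80 FPKM. The largest changes towards lower levels in the tumour were Snord49a (-2.21), Gm17743 (-1.99), Gm22358 (-1.92), Gm37982 (-1.91), Gm22884 (-1.90) and Zbtb16 (-1.86). Apart from Zbtb16, a transcription factor gene with 41 to 1945 reads, these are small or unnamed transcripts with 2 to 58 reads in the 6 cGAMP libraries. The calls of Gm22358 and Gm22884 were lost in the 12-library fit (adjusted p = 0.069 and 0.0584) and with voom (0.0618 and 0.0589). Groups of 3 libraries were too small for a check of single outlying values.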

How the results depend on the processing

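Under cGAMP, genes called higher numbered 639 with total-read scaling and 4370 without the fold limit. Genes called lower numbered 1406 at a pseudocount of 0.1, 349 at a mean of at least 5 FPKM, 1615 with total-read scaling, 1493 with voom and 3469 without the fold limit. Genes called in the test of the change towards higher levels in the tumour numbered 255 with total-read scaling and 1751 without the fold limit. Those called towards lower levels numbered 308 at the pseudocount of 0.1, 82 at a mean of at least 5 FPKM, 386 with total-read scaling, 205 with quantile normalization, 312 with voom and 851 without the fold limit. The count under PBS was 2520 at the pseudocount of 0.1, 958 at a mean of at least 5 FPKM, 2575 with voom and 6804 without the fold limit. The causes were not tested. Leaving out 1 library at a time gave 1194 to 1328 genes higher and 678 to 779 lower under cGAMP, 461 to 658 and 113 to 174 in the test of the change, and 1542 to 1663 under PBS. The replicate block, fitted although same-numbered libraries share only a number (correlations of deviations -0.119 to 0.104 between the cGAMP groups), gave 1262 and 724 under cGAMP, 516 and 128 for the change and 1598 under PBS.

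Of 136 named genes, 107 kept direction and side of the threshold under every alternative run. Differences that turned sign were not called before or after: Irf3 (-0.11), Ifnar1 (-0.059), Pecam1 (-0.17) and Kdr (-0.26) with total-read scaling, Pecam1 (-0.26) and Kdr (-0.32) with quantile normalization, and Irf1 (0.025) without implanted replicate 3, with a range of -0.198 to 0.025 over single libraries left out. Of 12 genes named from the test of the change, 9 kept their call. Depth limits genes with few reads: 277 of the genes called higher and 388 of those called lower stayed under 10 FPKM in all 6 libraries.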
